A study of Homo sapiens with 8 samples.

Results

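The cells were the human osteosarcoma line U2OS, whose p53 is wild type per the labels' protocols. The peaks here lie in windows around 5 receptor genes, those of the death receptors FAS, TNFRSF10A and TNFRSF10B and the decoy receptors TNFRSF10C and TNFRSF10D. They were all peaks of p53 chromatin immunoprecipitation and sequencing (ChIP-seq) that overlapped either of 2 windows of the human genome build hg18, a 46 kb window at FAS on chromosome 10 (90730000 to 90776000) and a 226 kb window on chromosome 8 (22923000 to 23149000) that holds TNFRSF10B, TNFRSF10C, TNFRSF10D and TNFRSF10A in this order. The windows held 15 of the 24535 peaks in the series, 4 at FAS and 11 at TNFRSF10. Positions of peaks alone were used in this choice, not any measured level. Cells were exposed to 0.6 µg/ml doxorubicin, left without treatment, exposed to 10 µM Nutlin-3 or given its solvent DMSO at 0.1%, with 24 h given as the time for each. The labels pair doxorubicin with untreated cells and Nutlin-3 with its solvent. All 4 immunoprecipitations used the p53 antibody DO-1, and each condition had 1 library and 1 deposited peak list, so no difference between conditions could be tested against replicate error and no p-value is given. The lists hold positions only, so the number of reads behind a peak is unknown and a peak that is not listed may have been below what its library could show. In all they hold 3087 doxorubicin, 496 untreated, 18159 Nutlin-3 and 2793 DMSO peaks. Counts of peaks in a window are therefore to be read beside these sizes.

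FAS and the TNFRSF10 proteins are cell surface receptors of the tumour necrosis factor receptor superfamily. FAS binds FAS ligand, and TNFRSF10A (DR4) and TNFRSF10B (DR5) bind the ligand TRAIL. Each of these carries a death domain that recruits the adaptor FADD and initiator caspases and so starts apoptosis from the membrane. TNFRSF10C (DcR1) is held in the membrane by a lipid anchor and has no intracellular death domain, and TNFRSF10D (DcR2) has a truncated one, so both bind TRAIL as decoys. p53 is a transcription factor that binds a pair of adjacent decamers. FAS and TNFRSF10B are long-known targets of it, with p53 elements described in the first intron of each. Doxorubicin poisons topoisomerase II and breaks DNA, and Nutlin-3 blocks the binding of the ubiquitin ligase MDM2 to p53.

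For FAS, the sequence best matching the p53 consensus element among its 3 promoter windows in RefSeq (build GRCh38.p14, plus strand) is shown. FAS alone among the 5 genes had promoter windows in the set searched. The stretch shown is the 250 bases upstream of an annotated FAS transcript start, chr10:88991181-88991430, and the capitals mark the 20 bases of the element.

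FAS: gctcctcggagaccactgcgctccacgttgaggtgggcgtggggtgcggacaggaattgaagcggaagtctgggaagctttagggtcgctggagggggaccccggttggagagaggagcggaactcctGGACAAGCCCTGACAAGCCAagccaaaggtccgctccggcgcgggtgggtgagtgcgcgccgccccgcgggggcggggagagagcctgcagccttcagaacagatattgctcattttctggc

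The element occupied bases 129 to 148 and ended 102 bases before this transcript start. The other FAS windows, chr10:88990548-88990847 and chr10:88990664-88990963, lie wholly below the stretch shown. The element is thus downstream of their transcript starts. Its first decamer had 0 mismatches to the consensus and its second had 2. The search allowed no bases between the decamers, and since the consensus is its own reverse complement a single pass covers both strands. Among the 35116 promoter windows of 300 bases searched, 228 (0.649%) held an element with as few mismatches. That share is per window, whereas the FAS element is the best of 3 windows. The other FAS windows had at best 5 mismatches, as 70.5% of all windows did or bettered. The sequence is in GRCh38 and the peaks are in hg18, so the peaks could not be placed on it, and the match is a description of these letters. Matching by symbol found 1 of the 5 genes, FAS.

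At FAS, p53 peaks of the doxorubicin, Nutlin-3 and DMSO lists coincided at a single place. The doxorubicin peak ran from 90740991 to 90741071 and was 80 bp wide, and untreated cells had 0 peaks in the window. Nutlin-3 and DMSO each had a 40 bp peak with the same bounds, 90741011 to 90741051. This lay in the middle of the doxorubicin peak, which reached 20 bp further on either side. All positions in the lists fall on a grid of 20 bp, so the bounds of these peaks differed by a single step of the grid. With peaks of at least 60 bp only, the doxorubicin peak remains and the window holds 0 Nutlin-3 and 0 DMSO peaks. Nutlin-3 had a further 40 bp peak from 90740391 to 90740431, which was 580 bp below the shared one and had no counterpart in another list. Peaks covered 80 bp of the window in doxorubicin and 0 bp in untreated cells, and 80 bp in Nutlin-3 against 40 bp in DMSO.

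The 4 FAS peaks all fell within 0.68 kb, starting 10.4 kb after the start of the window, and the 34.9 kb above them held no peak of any list. In the RefSeq order of genes FAS overlaps its neighbour ACTA2, the smooth muscle actin gene, and the antisense transcript FAS-AS1. No annotation of hg18 was used here, so the peaks are tied to FAS by the window and not by an exon or intron.

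The windows were set beside non-overlapping bins of the same length laid from the first to the last peak of each chromosome, stretches without peaks at centromeres included. Of the 64736 bins of 46 kb, 3.83% held at least 1 doxorubicin peak, as the FAS window did, and 0.511% held an untreated one. At least 2 Nutlin-3 peaks, the number at FAS, were in 5.74% of bins, and at least 1 DMSO peak was in 3.74%. A region shared by doxorubicin, Nutlin-3 and DMSO was in 2.07% of them. With so few untreated peaks in the genome, an empty window is what nearly every bin shows.

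**Figure D1:**
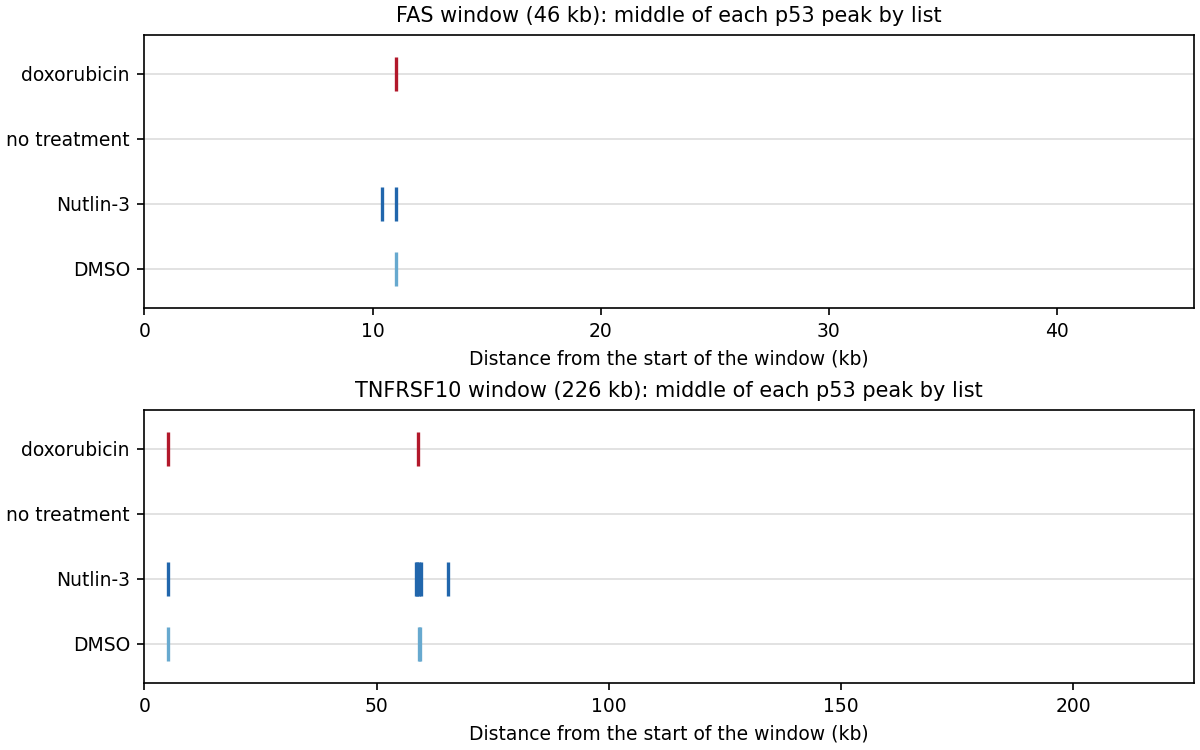
Positions of p53 peaks in the FAS window (top) and the TNFRSF10 window (bottom). The horizontal axis is the distance from the window's start in kb, each row is a list and each tick is the middle of a peak. The FAS peaks fall within 0.68 kb, and the TNFRSF10 peaks sit in the lowest part of their window, with 161 kb above them free of peaks.

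In the TNFRSF10 window the peaks sat at the end where TNFRSF10B comes first in the gene order. Doxorubicin had 2 peaks covering 280 bp, and untreated cells had 0. Nutlin-3 had 6 peaks covering 620 bp, and DMSO had 3 peaks covering 140 bp. The whole Nutlin-3 list is far longer, with 18159 peaks against 2793 for DMSO and 3087 for doxorubicin. The 11 peaks ran from 22927991 to 22988311, a span of 60.3 kb, and the 161 kb above them, 71.1% of the window, held no peak of any list. Bins of 161 kb without a peak of any list made up 52.7% of the genome laid out in such bins, so a stretch of this length without peaks is common in these data. Which of the 4 receptor genes lies under each peak was not set, because no annotation of hg18 was used here.

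The lower of the places shared by several lists lay 5.01 kb inside the lower end of the window by the DMSO peak. The doxorubicin peak ran from 22927991 to 22928051 (60 bp), the Nutlin-3 peak from 22928031 to 22928071 (40 bp) and the DMSO peak from 22928011 to 22928051 (40 bp). These peaks were staggered by steps of 20 bp, and 20 bp, from 22928031 to 22928051, were common to all of them. Nutlin-3 shared 20 bp with doxorubicin and 20 bp with DMSO, whereas the DMSO peak lay wholly inside the doxorubicin peak. Whether these peaks lie in a death receptor gene was not tested. With the window shortened by 10 kb at each end this place falls outside it, which leaves 1 doxorubicin, 5 Nutlin-3 and 2 DMSO peaks.

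The upper shared place was the fullest part of the window, with 7 of the 11 peaks within 1.2 kb. The doxorubicin list had a single peak there, from 22981891 to 22982111, which was 220 bp wide. Nutlin-3 had 4 peaks, from 22981411 to 22981471 (60 bp), 22981711 to 22981851 (140 bp), 22982071 to 22982171 (100 bp) and 22982371 to 22982611 (240 bp). DMSO had 2 peaks, from 22982071 to 22982111 (40 bp) and 22982311 to 22982371 (60 bp). The smaller DMSO peak was the exact stretch that all of these lists had in common: the doxorubicin peak ended where it ended and reached 180 bp below it, and the Nutlin-3 peak began where it began and reached 60 bp above it.

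The other peaks of this place lay on either side of the common stretch. The Nutlin-3 peak of 140 bp was 40 bp below the doxorubicin peak, and the one of 60 bp was 420 bp below it. The DMSO peak of 60 bp ended at 22982371, where the widest Nutlin-3 peak began, so that these adjoin without sharing a base under the convention that an end lies outside the peak. Farther up, Nutlin-3 had a 40 bp peak from 22988271 to 22988311, 5660 bp from its nearest Nutlin-3 peak. The nearest peak of another list, from DMSO, was 5900 bp away.

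**Figure D2:**
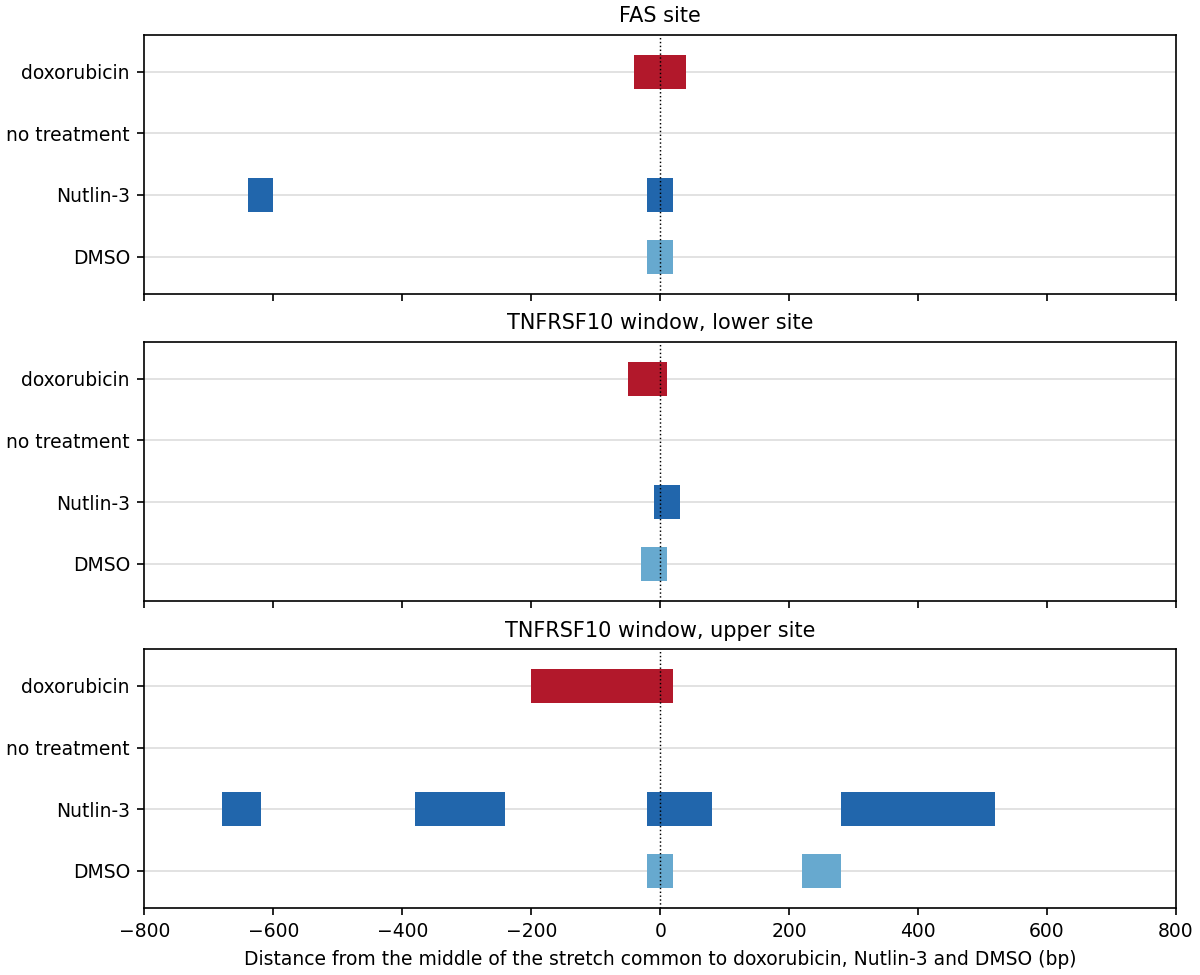
Peaks around the places shared by doxorubicin, Nutlin-3 and DMSO, at FAS (top), the lower site (middle) and the upper site (bottom) of the TNFRSF10 window. The horizontal axis is the distance in bp from the middle of the stretch common to these lists, and each bar is a peak drawn to scale. Bars of 3 lists cross the dotted line in each panel, the row of untreated cells is empty, and the upper site has 4 Nutlin-3 bars against 2 for DMSO and 1 for doxorubicin. The whole lists hold 18159, 2793 and 3087 peaks in this order.

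Read against bins of 226 kb, of which there were 13165, at least 2 doxorubicin peaks occurred in 3.10% and at least 1 untreated peak in 2.17%. At least 6 Nutlin-3 peaks occurred in 4.36% and at least 3 DMSO peaks in 0.904%. At least 2 regions shared by doxorubicin, Nutlin-3 and DMSO occurred in 0.874% of bins. Runs as tight as that of the upper site, 4 Nutlin-3 peaks within 1200 bp, took in 126 of the 18159 Nutlin-3 peaks (0.694%). That measure and those of the bins were chosen with the positions of these peaks known.

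No untreated peak lay near either window. The nearest was 16.1 Mb from the FAS peaks, on a chromosome with 14 untreated peaks, and 4.70 Mb from the TNFRSF10 peaks, on a chromosome with 71. The windows held 0 of the 496 untreated peaks, which is a complete count of that list. A limit of 3 counts for a count of 0 would be 0.605% of a list of this size. That limit covers counting error only.

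When overlapping or adjoining peaks were merged, the 15 peaks formed 8 regions. Doxorubicin, Nutlin-3 and DMSO together held 3 of them, a class that made up 7.04% of the 19877 regions in the series. Nutlin-3 alone held 4, against 76.0% of all regions, and Nutlin-3 with DMSO held 1, against 3.90%. The region of Nutlin-3 with DMSO joins peaks that adjoin and share 0 bp. With adjoining peaks kept apart, the TNFRSF10 window held 0 regions of this class, 1 of DMSO alone and 4 of Nutlin-3 alone. Doxorubicin alone held 0 of the 8, against 3.52% of all regions, and DMSO alone held 0, against 2.93%, so counts of 0 among 8 are near these shares. With so few regions these counts describe the windows, and no list of other p53 targets was compared.

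In terms of peaks, 0 of 3 doxorubicin peaks overlapped an untreated peak (exact 95% Clopper-Pearson interval 0 to 70.8%), against 5.54% of all doxorubicin peaks. All 3 overlapped a Nutlin-3 peak (29.2 to 100%), against 63.5% of the doxorubicin list, and all 3 overlapped a DMSO peak (29.2 to 100%), against 40.6%. If both peaks had to overlap by at least 50% of their width, or if only peaks of at least 60 bp were used, 33.3% of the doxorubicin peaks overlapped Nutlin-3. Of the 8 Nutlin-3 peaks, 3 (37.5%, 8.52 to 75.5%) overlapped a DMSO peak and the same 3 overlapped a doxorubicin peak, against 10.9% and 10.8% of the Nutlin-3 list. None of the 8 Nutlin-3 peaks overlapped an untreated peak (0 to 36.9%), against 0.187% of its list. Of the 4 DMSO peaks, 3 (75%, 19.4 to 99.4%) overlapped a Nutlin-3 peak and 3 overlapped a doxorubicin peak, against 70.4% and 45.0% of the DMSO list, and 0 (0 to 60.2%) overlapped an untreated peak, against 0.215%. Each of these intervals takes in the share of the whole list, but with so few peaks this cannot show likeness to the list. For 3 doxorubicin peaks, both 0 of 3 (0 to 70.8%) and 3 of 3 (29.2 to 100%) take in 63.5% and 40.6%. The intervals cover counting error only and treat peaks as independent, although 7 of the 15 lay within 1.2 kb.

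**Figure D3:**
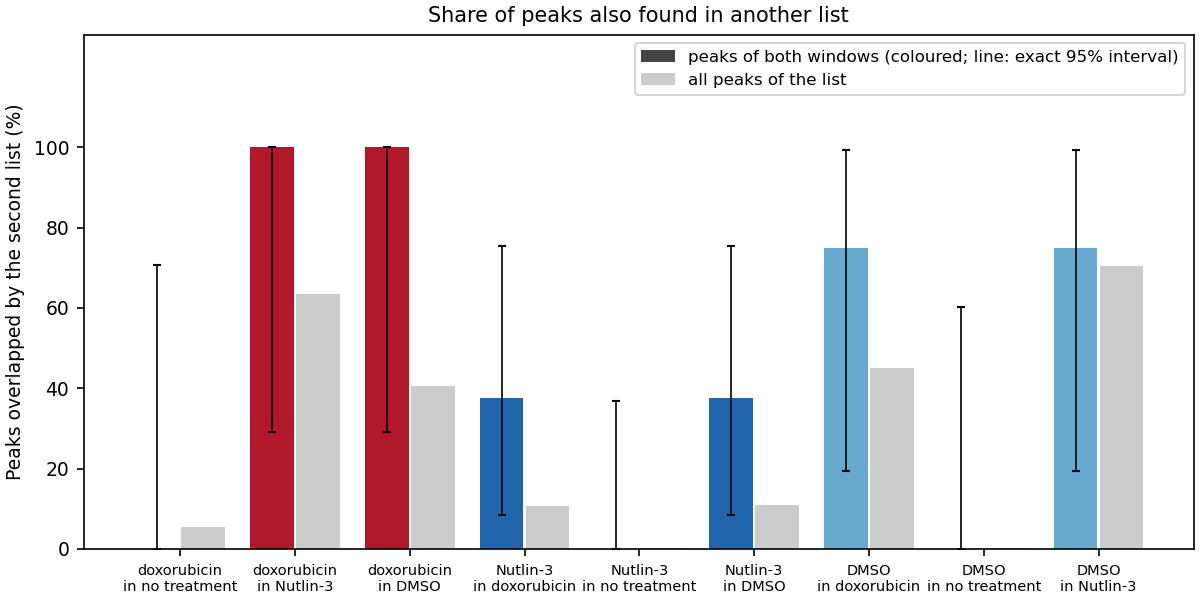
Share of the peaks of both windows (coloured bars, with exact 95% intervals as lines) and of all peaks of the same list (grey bars) that a second list overlapped, in percent. Windows held 3 doxorubicin, 8 Nutlin-3 and 4 DMSO peaks, and each interval takes in the grey bar beside it. With so few peaks the intervals are too wide to show likeness to the list.

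Most peaks of both windows were narrow, as in the lists they came from, whose median width was 60 bp each. The doxorubicin peaks were 60, 80 and 220 bp wide, and 10.2% of the doxorubicin list was as wide as the last or wider. The Nutlin-3 peaks ranged from 40 to 240 bp with a median of 50 bp, and 4.63% of the Nutlin-3 list was as wide as the widest or wider. The DMSO peaks ranged from 40 to 60 bp with a median of 40 bp, the smallest width in that list, which 47.5% of its peaks had. The peaks of 100 bp or more, 1 from doxorubicin and 3 from Nutlin-3, all lay at the upper TNFRSF10 site.

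**Figure D4:**
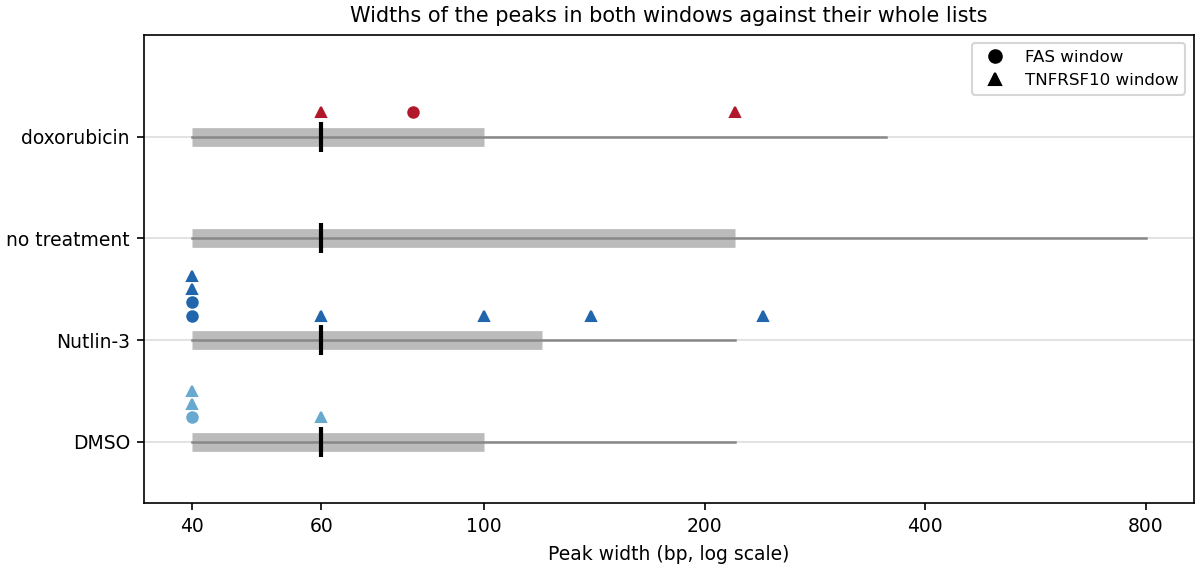
Widths of the peaks of both windows (circles for FAS, triangles for TNFRSF10) above the whole list they came from, on a logarithmic axis in bp. Grey boxes span percentiles 25 to 75 of a list, thin lines percentiles 5 to 95, and black ticks mark the median of 60 bp. The widest peaks shown are the 220 bp doxorubicin and the 240 bp Nutlin-3 peaks of the TNFRSF10 window.

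Among the peaks that held the common stretch, the doxorubicin peak was the widest at each of the 3 shared places. The 240 bp Nutlin-3 peak of the upper TNFRSF10 site, which does not reach the common stretch, was wider. The doxorubicin peak was 80 bp at FAS, against 40 bp with Nutlin-3 and 40 bp with DMSO. At the lower TNFRSF10 site it was 60 bp, against 40 bp and 40 bp. At the upper one it was 220 bp, against 100 bp and 40 bp. In the series, 1376 regions held exactly 1 peak from each of these lists, and doxorubicin was the widest in 25.1% of them. The Nutlin-3 peak was wider than the DMSO peak at 1 of the 3 places and had its width at the others, against 25.2% and 42.2% of the 1376. Identical Nutlin-3 and DMSO bounds, as at FAS, occurred in 19.7%. A width is a property of the peak calling and does not measure how much p53 was bound.

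Merged regions of Nutlin-3 alone lay within 1000 bp of the shared places at FAS, with 1, and at the upper TNFRSF10 site, with 2, and 0 lay beside the lower site. The count at the upper site leaves out the 240 bp Nutlin-3 peak, which was merged with the DMSO peak it adjoins although they share 0 bp. Of the 1400 regions shared by doxorubicin, Nutlin-3 and DMSO in the series, 42.9% had such a neighbour.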

How the data were processed

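Per the labels' protocols, formaldehyde-fixed chromatin was sheared, p53 was pulled down with antibody DO-1, and Illumina libraries were made. The authors deposited for each of the 4 ChIP libraries a list of peaks in which 3 columns give chromosome, start and end. The submitters' processing notes name hg18, CASAVA and Bowtie 0.12.2. Neither the peak caller nor its threshold is given in the sources used here, and the input libraries were not analysed. Depth is unknown. Positions are given as deposited, with the end taken to lie outside the peak.

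Peaks overlapping the windows by at least 1 bp were kept, and all of them are reported. Overlaps, merging, bins, exact 95% Clopper-Pearson intervals and the motif search were computed with Python 3.11.15, numpy 2.4.6 and scipy 1.17.1, and figures with matplotlib 3.10.9. Overlap calling was tested on simulated peaks placed at known shares. The genes, windows and measures were chosen with earlier results of these data known. Alternatives changed the window bounds, the smallest width, the merging distance and the overlap rule.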

Additional observations from a re-analysis of the deposited data

How the results depend on the processing

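Of 101 alternative values for 22 counts and shares, 77 stayed within 1.5 times or within the interval and 24 moved, 9 up and 15 down. Why the 24 moved was not tested. The 77 include values for untreated peaks, all 0, which could not move with the nearest such peak at least 4.70 Mb away. Wide intervals let a share change by over 1.5 times and stay. With a reciprocal overlap of at least 50%, 33.3% of doxorubicin peaks overlapped Nutlin-3 and 12.5% the reverse. Likewise, 25% of Nutlin-3 peaks overlapped DMSO and 50% the reverse. With peaks of at least 60 bp, 33.3% of doxorubicin peaks overlapped Nutlin-3 and 25% the reverse. The FAS window then held 0 Nutlin-3 and 0 DMSO peaks and its 1 region was doxorubicin alone. The sharing at FAS thus rests on peaks of 40 bp. The same setting left 1 DMSO peak in the TNFRSF10 window, 0 regions of doxorubicin, Nutlin-3 and DMSO in either window, 1 of doxorubicin alone and 1 of doxorubicin and Nutlin-3 in the TNFRSF10 window and 0 of Nutlin-3 alone at FAS, and 0% of Nutlin-3 peaks overlapped DMSO and 0% the reverse. The TNFRSF10 window shortened by 10 kb at each end lost the lower site and held 1 doxorubicin peak. Merging peaks of a list within 500 bp left 3 Nutlin-3 peaks there. Merging all peaks within 1000 bp left 0 regions of Nutlin-3 alone at FAS and 1 in the TNFRSF10 window, and 0 of Nutlin-3 with DMSO, as did merging within 200 bp (0).

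Within 1000 bp, 87.5% of Nutlin-3 peaks had a DMSO peak, 87.5% a doxorubicin peak and 100% of DMSO peaks a Nutlin-3 peak. The last share was also 100% with midpoints within 200 bp. Alternatives added after seeing the data concern the adjoining peaks: with ends counted as part of the peak, 100% of DMSO peaks overlapped Nutlin-3, and with adjoining peaks kept apart, 1 region was DMSO alone and 0 were Nutlin-3 with DMSO. No paired analysis was possible because each condition had 1 library. Unknown depth limits every statement that a list has no peak.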

Other observations

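Within 50 kb on either side of the windows, the lists held 1 more peak, a 40 bp Nutlin-3 peak on chromosome 8 from 22900551 to 22900591, 22.4 kb below the TNFRSF10 window. The surroundings of the FAS window held 0 peaks of any list over the same distance.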
